A study of Mus musculus with 2 samples.

Results

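The core and linker histone genes comprised 46 gene names, read by 66 probes, of the 27962 gene names and 41174 probes on a mouse expression microarray. They were chosen by name. Gene names beginning with Hist1h, Hist2h, Hist3h or Hist4h gave 34 replication-dependent genes with 44 probes, and names beginning with H1f, H2af or H3f, with 1 H2A gene left out, gave 12 replacement genes with 22 probes. The arrays set RNA of B cells transduced to express the microRNA miR-181b against RNA of B cells transduced with a control vector. All 66 probes matched a current gene in RefSeq, 53 by accession and 13 by synonym, and the names of the array's design are used here with the current symbol where a gene is first described.

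Both RNAs came from spleen B cells of C57BL/6 mice, isolated by removing cells that bear CD43 and grown with 25 µg/ml lipopolysaccharide and, at 10 ng/ml, interleukin-4, which drive resting B cells to divide. Retrovirus was applied for 20 h with polybrene (8 µg/ml), and green fluorescent cells were sorted on day 2. The retroviral culture, the stimulation and the sort were shared by the miR-181b and control cells, whose vectors differed. The labels state 1 RNA sample per vector. That pair was hybridised to 2 arrays with the dyes exchanged, so the arrays are technical repeats, no test between the vectors was possible, and every ± below is the distance of each array from their mean.

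Histones package DNA. Core histones H2A, H2B, H3 and H4 form the nucleosome, and linker histone H1 binds the DNA between nucleosomes. Replication-dependent genes lie in clusters, are transcribed as DNA is copied, and give mRNAs that end in a conserved stem-loop in place of a poly(A) tail. Replacement genes are scattered in the genome, give polyadenylated mRNAs and are expressed through the cell cycle and in resting cells. The vector's microRNA pairs with targets mainly through its seed, which is in capitals in the mature sequence (RefSeq, GRCm38.p6), encoded on mouse chromosomes 1 and 2 and written 5′ to 3′:
miR-181b-5p: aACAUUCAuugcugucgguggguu
The complement of that seed, TGAATGT, occurred in 0 of the 66 histone probes and in 0.954% of all 41174 probes. Each probe covers 60 bases of a transcript, so the rest of each mRNA was not searched.

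Ratios are log2 of miR-181b over control RNA, with the sign of array 2 turned, so that a negative value is lower in miR-181b cells. Levels are log2 normalised intensities and are compared only within a probe. A probe counted as measured only if the scanner software marked it well above background on each array in each RNA, and a gene was represented by its brightest measured probe. By this rule 40 of the 46 histone genes were measured, 30 of 34 replication-dependent and 10 of 12 replacement genes, against 17711 genes on the whole array. Between 64.6% and 67.5% of probes were well above background in an RNA on an array. Over the measured genes the ratios of the arrays correlated with a Pearson r of 0.029 as a description across genes, and the median distance of an array from the mean was 0.09. All 7 B cell markers were measured, 3 of them saturated, with a median ratio of 0.17 (-0.38 on array 1 and 0.77 on array 2). Markers of other cells were also above background: 6 of 6 for T cells, 5 of 5 on the array for macrophages and 4 of 4 for plasma cells. Median ratios were -0.05 for T cell, -0.02 for macrophage and 0.32 for plasma cell markers. Of the macrophage markers Lyzs (-0.49) and Csf1r (-0.26) were lower on both arrays and 2 others higher, and of 2 measured erythroid markers 1 was lower (-0.29) and 1 higher (0.39). The part of other cells in the histone values was not tested.

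Replication-dependent histone mRNAs gave lower signal in miR-181b cells than in control cells for most genes, and replacement histone mRNAs did not share this. Whether the labelling captured mRNAs with and without a poly(A) tail alike was not tested. Of the 30 measured replication-dependent genes, 23 were lower in miR-181b cells on both arrays, none was higher on both and 7 differed in sign between arrays. Over all measured genes 27.4% were lower on both arrays and 24.4% were higher on both. The median log2 ratio of the replication-dependent genes was -0.26 (-0.23 on array 1 and -0.39 on array 2), against -0.005 over all measured genes. Of the 10 measured replacement genes, 3 were higher on both arrays and 1 was lower, and the class median was 0.002 (array 1, 0.017, and array 2, 0.33). By unsaturated probes the replacement median on array 2 was -0.03. The replication-dependent median was 0.26 below the replacement median on the log2 scale, and stayed 0.24 to 0.31 below it under the other processings that used both arrays. Array 1 alone gave a gap of 0.25, and array 2 alone one of 0.71. By unsaturated probes the array 2 gap was smaller, with medians of -0.41 for replication-dependent and -0.03 for replacement genes.

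The differences were small. Only Hist1h1e was at least 1.5-fold lower by the mean and lower on each array, and no histone gene was at least 1.5-fold higher, against 0.508% and 0.813% of all measured genes. Over genes by their brightest unsaturated probe these shares were 0.506% and 0.816%, and again Hist1h1e was the only histone gene. By these unsaturated probes 24 of 26 replication-dependent genes were lower on both arrays, with a median of -0.32, against 28.0% of genes on the array. None of the 26 was higher on both, against 24.8%. In bulk RNA, fewer cells making a transcript and less of it per cell cannot be told apart.

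**Figure D1:**
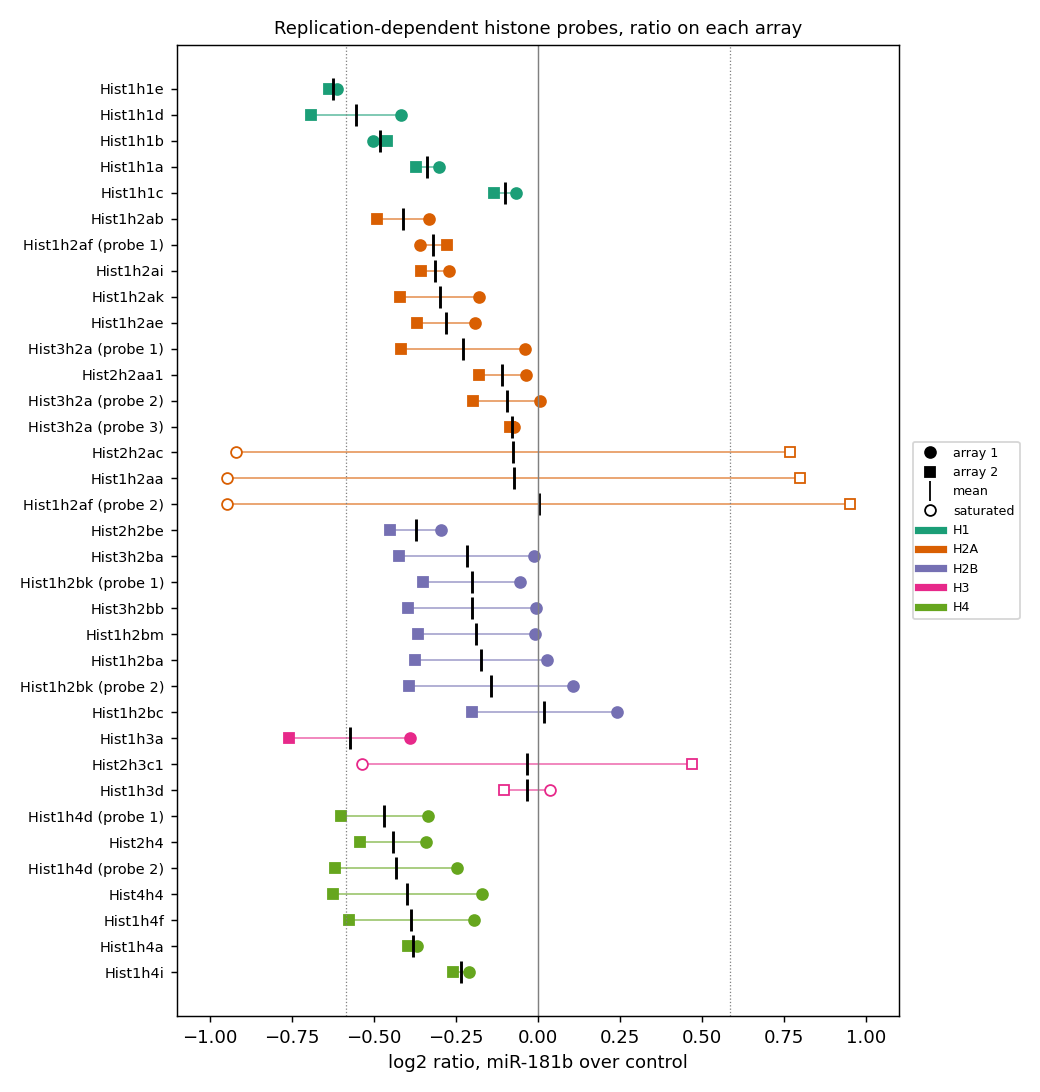
Log2 ratio of miR-181b over control RNA (horizontal axis) for each measured replication-dependent probe on array 1 and array 2, grouped by histone family, with open symbols for saturated probes and several probes of a gene numbered from the lowest mean. Unsaturated probes lie mostly left of 0 on both arrays, while saturated H2A probes sit near -0.95 on array 1 and at 0.77 to 0.95 on array 2.

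The replication-dependent linker histones were lower as a family. All 5 measured replication-dependent H1 genes were lower in miR-181b cells on both arrays, and the family median was -0.48 (array 1, -0.42, and array 2, -0.46). Hist1h1e (H1f4), a main somatic H1, had levels of 12.55 and 12.56 in miR-181b RNA on arrays 1 and 2, against 13.16 and 13.20 in control RNA. The vectors' values did not overlap, and the ratio was -0.63 ± 0.01, or 1.54-fold lower. Its probe reads the lysine- and alanine-rich tail of the coding sequence and is shown because it is the histone probe past 1.5-fold. It shares no run of 25 bases with another histone probe. No letter is capitalised, as no feature is marked:
Hist1h1e: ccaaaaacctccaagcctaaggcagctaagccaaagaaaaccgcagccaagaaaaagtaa

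Hist1h1d (H1f3) had levels of 12.06 and 11.93 in miR-181b RNA, against 12.48 and 12.62 in control RNA, a ratio of -0.55 ± 0.14. Hist1h1b (H1f5) had 11.49 and 11.69 in miR-181b RNA, against 11.99 and 12.15 in control RNA, a ratio of -0.48 ± 0.02. For both somatic H1 genes each miR-181b value lay below each control value. Hist1h1a had a ratio of -0.34 ± 0.03 and Hist1h1c, the smallest H1 difference, one of -0.10 ± 0.03. The sixth gene, Hist1h1t, encodes the testis H1 and was not measured.

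**Figure D2:**
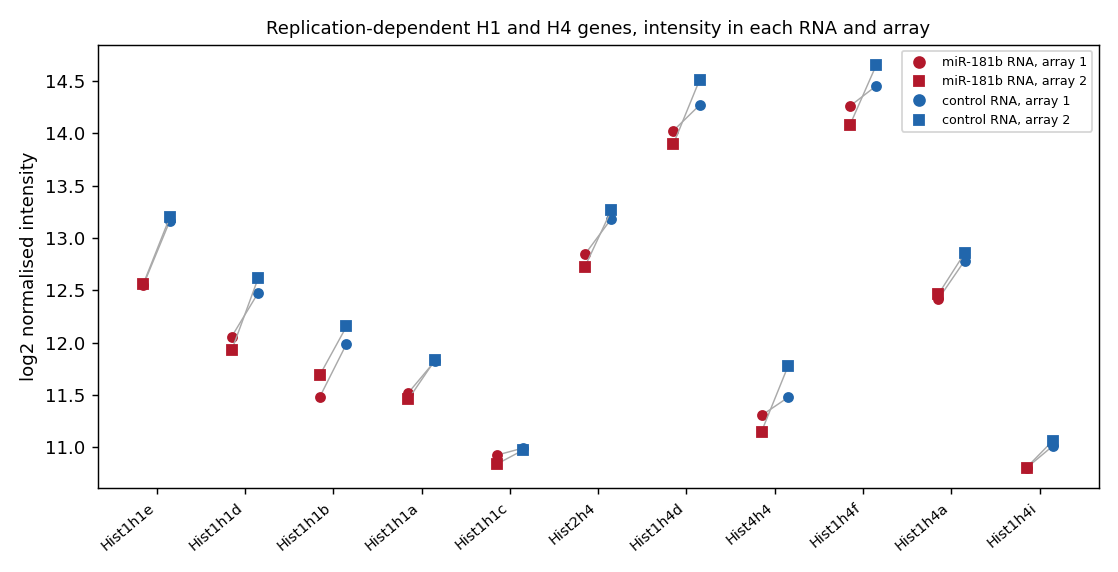
Log2 normalised intensity (vertical axis) of each measured replication-dependent H1 and H4 gene in miR-181b RNA (left, red) and control RNA (right, blue), with a line joining the RNAs of each array. For the 11 genes shown both miR-181b values lie below both control values, against 23.4% of all measured genes, from Hist1h1e with a ratio of -0.63 to Hist1h1c with -0.10.

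The H4 genes, which all encode the same core histone, had ratios within a narrow range. All 6 measured H4 genes were lower in miR-181b cells on both arrays, with means between -0.44 and -0.24, and the family median was -0.39 (array 1, -0.23, and array 2, -0.56). Hist2h4 (H4c14) had levels of 12.84 and 12.73 in miR-181b RNA, against 13.19 and 13.27 in control RNA, a ratio of -0.44 ± 0.10. Hist1h4d (H4c4) had 14.02 and 13.89 in miR-181b RNA, against 14.27 and 14.51 in control RNA, a ratio of -0.43 ± 0.19. A second Hist1h4d probe gave -0.47 ± 0.13. The miR-181b and control values of both genes were separate.

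These H4 values are not independent readings of separate genes. The brightest probes of Hist1h4d, Hist1h4f and Hist2h4 overlap in coding sequence, so each can bind mRNA of the others, and their ratios lay between -0.44 and -0.39. Capitals mark the run shared with the Hist1h4f probe, 50 bases for Hist1h4d and 29 bases for Hist2h4. In Hist1h4f capitals mark the run shared with Hist1h4d. Sequences run 5′ to 3′:
Hist1h4d: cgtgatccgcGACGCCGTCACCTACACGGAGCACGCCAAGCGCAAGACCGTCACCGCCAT
Hist1h4f: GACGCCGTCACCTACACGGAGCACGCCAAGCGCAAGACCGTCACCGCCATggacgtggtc
Hist2h4: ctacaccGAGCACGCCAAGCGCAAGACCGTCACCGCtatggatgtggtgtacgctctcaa

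Of the 3 measured H3 genes, which encode the replication-coupled core H3, only Hist1h3a (H3c1) had an unsaturated probe. Its levels were 10.09 and 9.86 in miR-181b RNA, against 10.48 and 10.62 in control RNA, a ratio of -0.57 ± 0.18. The vectors' values did not overlap, but the ratio on array 2 (-0.76) was larger than on array 1 (-0.39). Hist1h3d (H3c4) and Hist2h3c1 (H3c14) were saturated and are given with the saturated probes below.

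The Hist1h3a probe reaches into the end of the mRNA, where replication-dependent histone transcripts form their stem-loop, and probes of 2 H2A genes reach the same element. Capitals mark the runs that the Hist1h3a probe shares with them, 15 bases with Hist1h2ab and 13 bases with Hist1h2ae. Windows of 30 bases are shown, 5′ to 3′:
Hist1h3a: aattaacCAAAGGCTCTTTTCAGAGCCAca
Hist1h2ab: gaaagttaaccaaaaCAAAGGCTCTTTTCA
Hist1h2ae: CTTTTCAGAGCCAttcacttaattcagtaa
Each run occurred in 2 probes of the whole array. The joined run of 21 bases, CAAAGGCTCTTTTCAGAGCCA, occurred in 1. The flanks differ between these genes, and all 3 were lower on both arrays, Hist1h2ab with -0.41 ± 0.08 and Hist1h2ae with -0.28 ± 0.09. The Hist1h2ae window is the start of its probe, so most of that probe lies past the stem-loop that ends these mRNAs. Which RNA the Hist1h2ae probe reads was not tested.

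Among the 9 measured replication-dependent H2A genes, whose protein pairs with H2B in the nucleosome, 6 were lower on both arrays. The other 3, which differed in sign between arrays, were the saturated ones. By the brightest unsaturated probe of each gene 7 of 7 H2A genes were lower on both arrays, with means between -0.41 and -0.11 and a median of -0.30. Over every unsaturated H2A probe of this class 8 of 9 were lower on both arrays, with means between -0.41 and -0.08. Hist1h2af (H2ac10) shows the difference between probe types. Its unsaturated probe had levels of 14.21 and 14.35 in miR-181b RNA, against 14.57 and 14.63 in control RNA, a ratio of -0.32 ± 0.04. That probe shares runs of at least 25 bases with those of Hist1h2ai and Hist1h2ak, and the 3 ratios lay between -0.32 and -0.30.

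The H2B genes read lower mainly on array 2. Of 7 measured genes 5 were lower on both arrays, with a family median of -0.01 on array 1 and -0.37 on array 2. Hist1h2bc (H2bc4) had the highest mean ratio of all replication-dependent genes, 0.02 ± 0.22. Its levels were 8.79 and 8.58 in miR-181b RNA, against 8.55 and 8.78 in control RNA, so the vectors overlapped. The other family member with opposite signs was Hist1h2ba, a testis H2B gene, at -0.17 ± 0.20.

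Probes of Hist1h2bk, Hist1h2bm and Hist3h2bb share sequence, and their ratios lay between -0.20 and -0.19. Hist3h2bb has the current symbol H2bu1-ps, that of a pseudogene, and is counted here by its array name. The probes are shown because loci on chromosomes 13 and 11 are read through nearly the same letters. Capitals mark the run shared with the Hist1h2bm probe, 52 bases for Hist1h2bk and 26 bases for Hist3h2bb, and in Hist1h2bm the run shared with Hist1h2bk:
Hist1h2bk: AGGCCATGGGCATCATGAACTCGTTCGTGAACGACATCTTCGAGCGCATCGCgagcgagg
Hist1h2bm: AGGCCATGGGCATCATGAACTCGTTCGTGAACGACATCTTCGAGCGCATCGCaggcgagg
Hist3h2bb: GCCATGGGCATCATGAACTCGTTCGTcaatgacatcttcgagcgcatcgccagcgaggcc
The Hist1h2bk and Hist1h2bm probes differ by G53A and A54G, counted from 1 at the 5′ end with the Hist1h2bk base first. Over all 66 histone probes 13 pairs shared a run of at least 25 bases, 12 of them between genes, and 14 probes were involved. Counts of histone genes therefore count overlapping readings.

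Saturation touched 12 measured probes in 10 histone genes, against 440 of 17711 genes on the array. Of these probes 10 were saturated in Cy5 on both arrays and 2 in Cy5 on array 2 alone, and 3 were also saturated in Cy3 on array 1. Cy5 held miR-181b RNA on array 1 and control RNA on array 2. For a probe capped in Cy5 the signal is a bound in miR-181b RNA on array 1 and in control RNA on array 2. Hist1h2aa (H2ac1), a testis H2A gene, had ratios of -0.95 and 0.80, and the saturated Hist1h2af probe had -0.95 and 0.95. Hist2h2ac (H2ac20) had -0.92 and 0.77. Hist2h3c1 had -0.54 and 0.47, and Hist1h3d 0.04 and -0.10. None of these 5 replication-dependent probes had the same sign on both arrays.

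The brightest probe of the replacement gene H2afj (H2aj) shared this behaviour and also shared sequence with the Hist1h2aa and Hist1h2af probes. All 3 gave -0.95 on array 1. Capitals mark the run shared with the Hist1h2af probe, 44 bases for Hist1h2aa and 29 bases for H2afj, and in Hist1h2af the run shared with Hist1h2aa:
H2afj: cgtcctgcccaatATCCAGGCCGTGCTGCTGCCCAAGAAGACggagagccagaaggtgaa
Hist1h2aa: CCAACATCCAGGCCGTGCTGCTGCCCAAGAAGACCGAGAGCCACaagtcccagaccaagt
Hist1h2af: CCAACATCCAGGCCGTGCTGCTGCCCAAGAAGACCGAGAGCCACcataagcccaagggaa
With the ratios set as Cy5 over Cy3 instead, 4 of the 40 histone genes were past 1.5-fold in the same direction on each array (Hist1h2aa, Hist1h2af, Hist2h2ac and H2afj), all brighter in Cy3 and all saturated, against 1.45% of all measured genes. Among the 33 histone genes with unsaturated probes 0 were, against 0.264%.

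**Figure D3:**
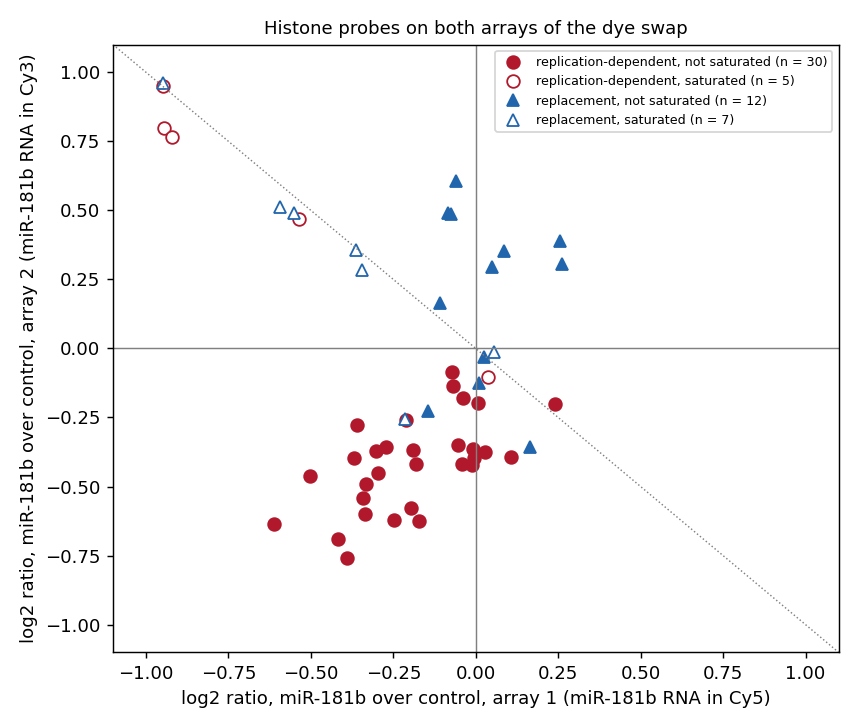
Log2 ratio of miR-181b over control RNA on array 1 (horizontal axis) and array 2 (vertical axis) for each measured histone probe, with replication-dependent and replacement genes in different colours and saturated probes open. Unsaturated replication-dependent probes gather in the lower left, lower in miR-181b RNA on both arrays, and saturated probes reach the upper left, where the signs differ.

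Replacement histones gave no common direction. H1f0, the linker histone of resting and differentiated cells, had levels of 12.28 and 12.36 in miR-181b RNA, against 12.03 and 11.97 in control RNA, a ratio of 0.32 ± 0.07. H1fx (H1f10), a divergent linker histone, had 13.05 and 12.78 in miR-181b RNA, against 12.79 and 12.47 in control RNA, a ratio of 0.28 ± 0.02. H2afy (Macroh2a1), which encodes macroH2A with its large extra domain, had 12.70 and 12.79 in miR-181b RNA, against 12.62 and 12.43 in control RNA, a ratio of 0.22 ± 0.13. These were the replacement genes higher in miR-181b cells on both arrays, though for H1fx the lower miR-181b value lay below the higher control value.

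The dimmer probes of these genes were less even. The other H1f0 probes had -0.08 and 0.49, and -0.06 and 0.61, on arrays 1 and 2. They share a run of at least 25 bases. The other H1fx probe had -0.11 and 0.16. Of the other H2afy probes, 1 was higher on both arrays (0.17 ± 0.12) and 1 was not (0.21 ± 0.28). With no loess and median centring, H1f0, H1fx and H2afy were no longer higher on both arrays. The median of replacement H1 was then -0.09 instead of 0.28, while that of all measured genes was -0.20 instead of -0.005.

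The H2A.Z genes, whose protein marks promoters and regulatory DNA, were saturated on array 2. H2afv (H2az2) was the replacement gene lower on both arrays by its brightest probe, with 15.39 and 15.16 in miR-181b RNA, against 15.60 and 15.41 in control RNA, a ratio of -0.24 ± 0.02. H2afz (H2az1) had 15.31 and 15.37 in miR-181b RNA, against 15.25 and 15.39 in control RNA, a ratio of 0.02 ± 0.03 with overlapping vectors. H2afy3 had a ratio of -0.003 ± 0.03, the oocyte linker histone H1foo (H1f8) -0.06 ± 0.07, and the unsaturated H2afj probe -0.10 ± 0.26.

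H3f3a and H3f3b encode the H3 replacement protein that is laid down outside of DNA replication. The 3 H3f3a probes were all saturated, with ratios of -0.59, -0.55 and -0.35 on array 1 and 0.51, 0.49 and 0.29 on array 2. The saturated H3f3b probe had -0.36 and 0.36. Its unsaturated probe had levels of 15.11 and 15.06 in miR-181b RNA, against 15.26 and 15.28 in control RNA, a ratio of -0.19 ± 0.04. That was the single unsaturated replacement probe lower on both arrays, of 12.

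**Figure D4:**
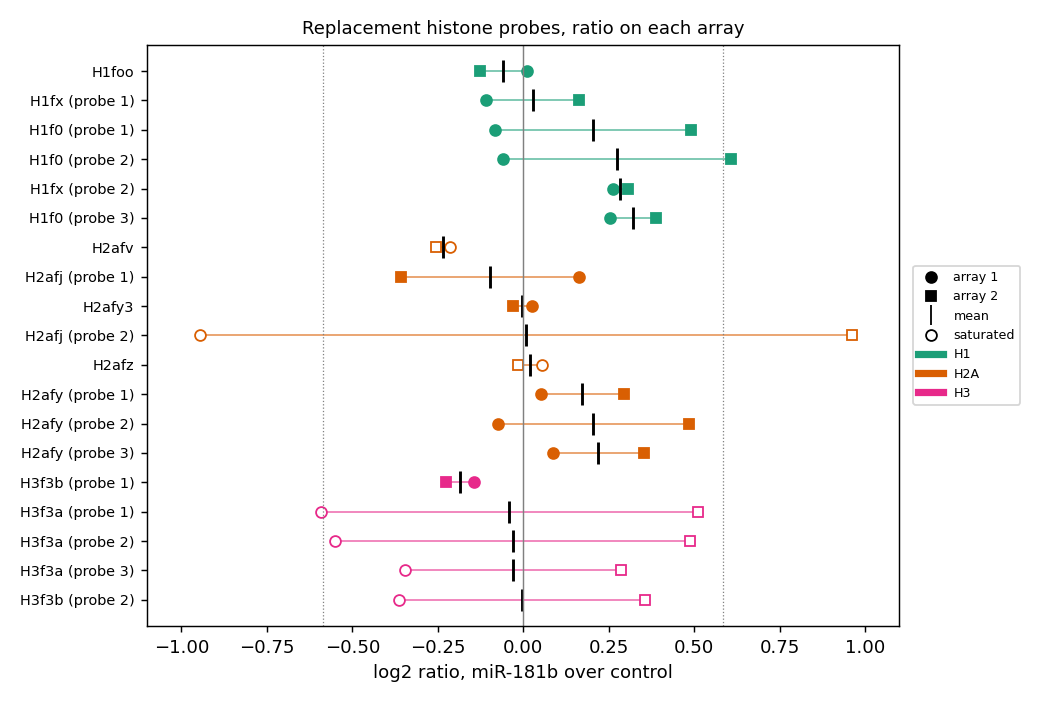
Log2 ratio of miR-181b over control RNA (horizontal axis) for each measured replacement histone probe on array 1 (circles) and array 2 (squares), with ticks for the mean, open symbols for saturated probes, colours for families and dotted lines at 1.5-fold. The brightest probes of H1f0, H1fx and H2afy (probe 3, 2 and 3) lie right of 0 on both arrays, and the saturated H3f3a probes span 0.

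The 6 histone genes that were not measured were Hist1h1t, Hist1h2ac, Hist1h2be and Hist2h2aa2 among replication-dependent genes and H1fnt and H2afy2 among replacement genes. For some dim probes the fold was taken with a dim signal raised, where lower, to that array's dimmest signal still well above background. This changed only the value of a second Hist1h1d probe, so the other folds are plain ratios near background and not bounds. Hist1h2ac was not well above background in miR-181b RNA and was so in control RNA on 1 of 2 arrays. Its means were 6.35 and 6.62, with control 1.21-fold higher. The second Hist1h1d probe, not well above background in miR-181b RNA, had control at least 1.17-fold higher. A Hist2h2aa2 probe, not well above background in control RNA, had miR-181b RNA 1.13-fold higher.

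Most replication-dependent genes lie on chromosome 13. Over all unsaturated probes on the array 26.6% were lower on both arrays. Of unsaturated replication-dependent probes, 18 of 21 from the large cluster on chromosome 13 were lower on both arrays, with a median of -0.32. The cluster on chromosome 3 gave 3 of 3 (median -0.37), the one on chromosome 11 gave 4 of 5 (median -0.20), and Hist4h4 on chromosome 6 had a ratio of -0.40. Over the 30 unsaturated replication-dependent probes the mean ratio had a Pearson r of -0.19 with probe GC content, which ran from 35.0% to 75.0%, and -0.29 with brightness. These probes share arrays and sequences, so both are descriptions.

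Promoters of 300 bases, the first listed for each gene, were read from RefSeq (GRCm38.p6) for 29 replication-dependent and 11 replacement genes, and searched on both strands. The TATA-box letters TATAAA occurred in 19 of 29 replication-dependent promoters (65.5%), in 1 of 11 replacement promoters and in 14.2% of 27025 promoters. CCAAT, read as ATTGG on the other strand, occurred in 26 of 29 (89.7%), in 7 of 11 replacement promoters and in 37.9% of all. AAACACA, a box known from H1 promoters, occurred in 5 of 6 replication-dependent H1 promoters (83.3%), in 0 of 4 replacement H1 promoters and in 7.14% of all. No site overlaps another in the sequences printed here.

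The 150 bases before the start of 3 genes are given as examples, with these motifs in capitals, 5′ to 3′ on the strand of the gene. They are Hist1h1e (chr13:23622559-23622708, minus strand), Hist1h4d (chr13:23581418-23581567, plus strand) and H1f0 (chr15:79028062-79028211, plus strand):
Hist1h1e: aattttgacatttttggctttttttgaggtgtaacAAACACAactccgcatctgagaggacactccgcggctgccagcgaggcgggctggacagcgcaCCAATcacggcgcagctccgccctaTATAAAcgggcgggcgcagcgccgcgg
Hist1h4d: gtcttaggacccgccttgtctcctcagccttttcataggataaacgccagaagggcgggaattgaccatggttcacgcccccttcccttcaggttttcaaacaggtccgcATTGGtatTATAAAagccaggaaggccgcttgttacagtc
H1f0: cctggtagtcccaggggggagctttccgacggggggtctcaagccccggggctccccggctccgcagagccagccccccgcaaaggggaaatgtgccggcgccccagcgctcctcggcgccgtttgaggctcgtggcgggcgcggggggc
The Hist1h1e promoter holds all 3 motifs, the Hist1h4d promoter holds ATTGG and TATAAA, and none of the 3 was found in this stretch of H1f0. For CCAAT neither Hist1h4d nor H1f0 is typical, as most H4 promoters lack it and most replacement promoters hold it. A match of letters is not a bound site.

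Genes that make, carry or accompany histones did not share one direction. Of 15 measured genes of histone transcription and mRNA 3′ end processing, 4 were lower and 4 higher on both arrays, with a median of -0.02. Npat, the activator of replication-dependent histone genes, had a ratio of -0.21 ± 0.02. Lsm10, a subunit of the U7 particle that cuts histone mRNA ends, had -0.18 ± 0.14, with -0.04 on array 1 and -0.32 on array 2. Zfp473 of the same list was higher on both arrays, at 0.28 ± 0.07. Ars2 was at least 1.5-fold higher by its mean, 0.64 ± 0.52, with 0.12 on array 1 and 1.16 on array 2. Of 21 measured histone chaperones and related genes 1 was lower and 8 were higher on both arrays, with a median of 0.08. Hat1, which acetylates new H4, had -0.16 ± 0.07, and Rbbp4, a histone-binding subunit of several complexes, had 0.43 ± 0.27.

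Genes of S phase, when replication-dependent histones are normally made, did not share the histone genes' direction. Of 26 measured genes, 4 were lower on both arrays and 9 were higher on both, and the list's median was 0.07 (array 1, 0.15, and array 2, -0.07). Fen1, a flap nuclease of replication, had 0.45 ± 0.30, and Mcm2, a subunit of the replicative helicase, 0.32 ± 0.16. Pola1, the catalytic subunit of the priming polymerase, had -0.18. Relative to the median of all genes this list was 0.08 higher, but -0.10 with no loess and median centring. The replication-dependent histone median kept its sign there, at -0.41 relative to all genes instead of -0.25.

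Mitosis genes, which act after DNA is copied, were also mostly lower. Of 22 measured genes, 16 were lower on both arrays and none was higher, and the list's median was -0.25 (array 1, -0.23, and array 2, -0.28). With the mean of all measured probes of a gene the list's median was -0.175, and that of replication-dependent histone genes was -0.257. Bub1, a spindle checkpoint kinase, had -0.68 on both arrays. Cenpe, a kinetochore motor, had -0.47 ± 0.19, and Aurkb, a mitotic kinase that phosphorylates H3, had -0.46 ± 0.12. What the part of dividing cells in each culture contributed to the histone values was not tested.

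**Figure D5:**
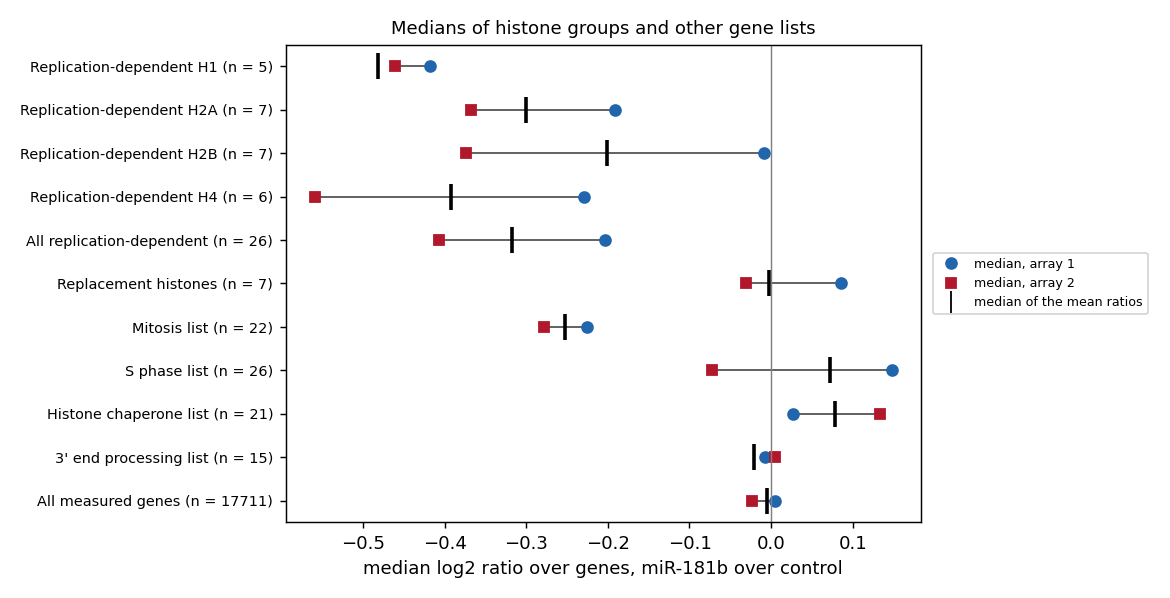
Median log2 ratio of miR-181b over control RNA (horizontal axis) of histone groups by unsaturated probes, of lists of other genes and of all 17711 measured genes, with circles for array 1, squares for array 2 and ticks for the median of the mean ratios. Replication-dependent H1, H2A and H4 and the mitosis list lie left of 0 on both arrays. H2B lies left of 0 on array 2 and about at 0 on array 1 (-0.009). Replacement histones, S phase genes and chaperones lie around or right of 0.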

How the data were processed

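The authors deposited 1 scanner file per array, made with Agilent Feature Extraction 9.1.3.1 per the file headers. For each of 45018 spots, 43379 of them not controls, the deposited intensity values are the spot's mean and its local background's median, in Cy3 and in Cy5, with no correction. The deposited log10 ratio (Cy5 over Cy3) of the software's corrected signals was used as an alternative. A deposited series table was not used, as its row identifiers matched no probe column. In limma 3.58.1 (R 4.3.3), normexp (offset 50) corrected the background, loess within each array with control spots at weight 0 corrected the dyes, and Aquantile scaled the intensities. Spots flagged as outliers (7 and 21) were left out, spots of a probe were averaged, and the log2 ratio on array 2 was turned. Of these steps, the background correction and the loess were tested on simulated data, in which no spot was saturated. Both arrays lay on 1 slide, and the number of arrays and the single RNA per vector limit the precision. The loess assumes that most genes do not differ.

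The members and lists were chosen with earlier results of these data known. Values are given for measured replacement genes, the 6 lowest and 6 highest replication-dependent genes, saturated genes, genes past 1.5-fold and the 3 lowest and highest of each list, of which some are printed. Further genes are named for family, sequence or state. Alternatives were the scanner's ratio, no loess with median centring, scaling between arrays, no filter on dim probes, no saturated probes, other uses of several probes, a 2-fold threshold and each array alone. One marker gene is not reported here.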

Additional observations from a re-analysis of the deposited data

How the results depend on the processing

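No paired analysis was possible because the labels give 1 RNA per vector and the 2 arrays are a dye exchange of that pair. The count of histone genes lower on both arrays, 24 of 40, rose to 34 of 40 with no loess and median centring. The shares of all genes lower or higher on both arrays under that setting were not computed. Other settings that used both arrays gave 23 to 28, with 33 to 54 genes or probes measured. Array 2 alone gave 30 lower genes and array 1 alone gave 31, each counted on 1 array only. With no loess and median centring the median ratio was -0.61 for replication-dependent genes, instead of -0.26, and -0.30 for replacement genes, instead of 0.002, while that of all genes was -0.20. Under that setting 17 histone genes were at least 1.5-fold lower, or 7 when set against the median of all genes, and 0 were higher on both arrays instead of 3. The scanner's ratio gave 2 genes at least 1.5-fold lower instead of 1, the second being Hist1h3a, and a 2-fold threshold gave 0. Shares of all genes past the threshold were not computed with no loess, by the scanner's ratio or at 2-fold. With 1 array alone the median ran from -0.39 to -0.23 for replication-dependent and from 0.017 to 0.33 for replacement genes. Single arrays gave 5 to 6 genes at least 1.5-fold lower (5 without array 1), 0 to 4 at least 1.5-fold higher (4 without array 1) and 9 to 10 higher. Of the 6 lower on array 1, 5 were saturated (Hist1h2aa, Hist1h2af, Hist2h2ac, H2afj and H3f3a), as were the 4 higher on array 2 (the same without H3f3a), so their sign turned with the array. The shares of all measured genes lower, higher or past 1.5-fold on 1 array alone were not computed, so the single-array counts have no background beside them. Hist1h1e stayed lower under every alternative run. The cause of these shifts was not tested. Saturation limits what 10 of the 40 measured histone genes can show, and background what the 6 others can.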
